A study of Mus musculus with 6 samples.

Results

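The sirtuins and the NAD salvage enzymes that feed them were compared between wild-type mouse embryonic fibroblasts and fibroblasts without Zmpste24, the metalloprotease that trims prelamin A into lamin A. The members are the 9 genes Sirt1 to Sirt7, Nampt and Nmnat1, taken by name. They are carried by 14 of the 45037 non-control probe sets of the array, each with that gene as its only symbol, and stand among 18193 named genes. There were 3 wild-type (Zmpste24+/+) and 3 Zmpste24-/- cultures, labelled C57BL/6, derived at E13.5 and harvested at passage 3 in medium with fetal calf serum, with no other treatment or allele named. Each culture was hybridised to 1 Affymetrix Mouse Genome 430 2.0 array, on which a probe set is a group of short probes that together report the level of a transcript. The cultures carry the numbers 1 to 3 in both genotypes. The labels say that the lines were made as pairs of the genotypes, but neither what makes a pair nor that the number marks it. Whether each line came from a separate embryo is not stated, so p-values measure the spread between these cultures. With 3 arrays a group, precision is limited by their number. The deletion is in every cell of the culture, and the part of Zmpste24 removed is not given.

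Sirtuins remove acetyl and related acyl groups from lysines and consume NAD as they do so, releasing nicotinamide. Nampt, the rate-limiting enzyme of salvage, turns nicotinamide into nicotinamide mononucleotide, and Nmnat1 turns that into NAD in the nucleus. Sirt1, Sirt6 and Sirt7 are mainly nuclear, Sirt2 is mainly cytosolic, and Sirt3, Sirt4 and Sirt5 are mitochondrial. SIRT1 and SIRT6 have been described as partners of lamin A, which makes their transcripts of interest in cells that cannot process its precursor.

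Several facts of the whole series bear on these genes. The Zmpste24 probe set had a signal of 2043 to 3850 in wild type and 182 to 365 in Zmpste24-/-, a log2 difference of -3.31 that limma called with the culture number as a block (adjusted p = 4.0e-05) and not without it (0.987). Xist gave 4766 to 6669 in the 3 Zmpste24-/- cultures and 5324 in wild-type culture 1, but 69.3 and 43.7 in wild-type cultures 2 and 3. Eif2s3y and Kdm5d, carried on the Y chromosome, gave no more than 15.7 in 4 cultures against 326 to 1341 in the remaining pair, wild-type 2 and 3, so that genotype and embryo sex cannot be told apart in numbers 2 and 3. Fibroblast markers were bright throughout, with Vim, Col1a2 and Fn1 the 3 brightest of 10 and a summed signal of 95924 to 113854 per array. Of other cell types, the endothelial markers (brightest Emcn, Kdr and Tek) summed to 468 to 597 in wild type and 628 to 812 in Zmpste24-/-, without overlap. Each of these 3 overlapped by itself, with log2 differences of 0.50, 0.0003 and 0.16, and Emcn had 614 in Zmpste24-/- culture 1. Pecam1 (2.27 to 18.1, difference -0.53) and Cdh5 (18.7 to 41.7, difference 0.08) overlapped and were on average too dim to be tested. The neural markers (brightest Stmn2, Tubb3 and Fabp7) summed to 875 to 1918 and 1739 to 2268, and 6 of 6 were higher in Zmpste24-/- with a median of 0.58. Their median was 1.13 in same-numbered pair 1, 0.54 in pair 2 and -0.08 in pair 3, and 3 of the 6 were higher in every pair. Without overlap were 2 of the 6, against 2.22% of all tested probe sets on the higher side. Limma called 0 markers of either list for genotype, and their part in the genotype values below was not tested. Epithelial markers summed to 474 to 1418 and muscle markers to 292 to 642 per array. None of the 41 marker genes measured was listed at 0.

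No sirtuin and no salvage enzyme passed the test for a difference between the genotypes. Sirt1 had the most positive log2 difference (0.29) and Sirt3 the most negative (-0.30) among the 13 member probe sets tested, and the wild-type and Zmpste24-/- signals overlapped for all 13. The test was limma, a linear model fitted over 27022 probe sets, with a Benjamini-Hochberg adjusted p under 0.05 as the threshold and values as log2(signal + 16), a scale that understates changes of dim probe sets. It called 0 of the 13, with an adjusted p of 0.99985 for each, against 0% of all tested probe sets. At an unadjusted p under 0.05 it had 0 of the 13, against 349 of all 27022. That fit did not call Zmpste24 either (adjusted p = 0.987), so its absence of calls cannot show equal levels. Entering the culture number as a replicate block called 0 of the 13 as well, with adjusted p from 0.537 to 0.967, against 0.0185% of all tested probe sets. At an unadjusted p under 0.05 the block fit had 1 of the 13, against 2430 of all 27022. Groups without overlap were found for 2.22% of all tested probe sets on the higher side and 3.03% on the lower side. The fourteenth member probe set, the dimmest of 3 for Sirt5, lay between 2.20 and 35.6 and was under the limit of 39.4 for testing.

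**Figure D1:**
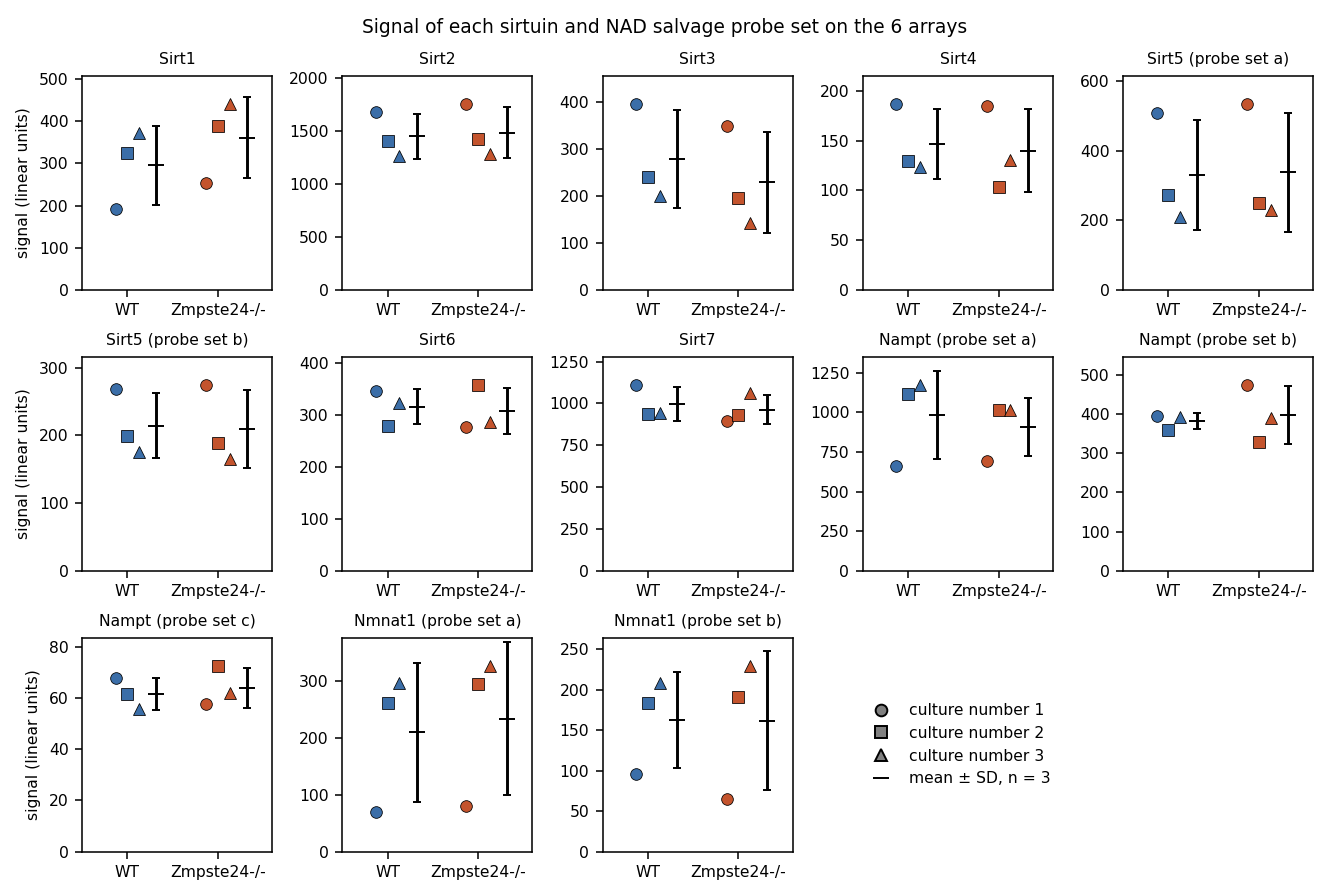
Signal in linear array units of the 13 tested probe sets in wild-type (WT, blue) and Zmpste24-/- (orange) cultures; circles, squares and triangles are culture numbers 1, 2 and 3, and bars are the mean ± SD of 3 cultures. In every panel the genotypes overlap, while the circles stand apart from the other symbols for Sirt1, Sirt2, Sirt3, Sirt4, Sirt5, Nmnat1 and the brightest Nampt probe set. On the middle Nampt probe set the circles lie above the rest, unlike on the brightest, and in wild type only narrowly (395 against 392).

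Among the nuclear sirtuins, Sirt1, which deacetylates histones and transcription factors, had signals of 191, 324 and 371 in wild-type cultures 1, 2 and 3 and 255, 388 and 441 in Zmpste24-/- cultures 1, 2 and 3. The Zmpste24-/- culture was the higher of each same-numbered pair, but Zmpste24-/- culture 1 lay below wild-type cultures 2 and 3, so the groups overlapped. The log2 difference was 0.29 (95% interval -0.47 to 1.05 without a block, and 0.02 to 0.56 with the replicate block), with differences of 0.39, 0.25 and 0.24 in pairs 1, 2 and 3. With the block the unadjusted p was 0.0361 and the limma adjusted p 0.537, so the difference did not pass. The difference was 0.02 without wild-type culture 1, 0.14 without Zmpste24-/- culture 3, 0.47 without wild-type culture 3 and 0.51 without Zmpste24-/- culture 1. Culture number was not modelled in these omissions, so each weighted the numbers unequally between the genotypes, by construction. Sirt1 also differed by number, with log2 values of 0.65 for number 2 and 0.83 for number 3 against number 1. The shifts therefore cannot show whether the Sirt1 difference rests on 1 culture. Sirt6, which acts on histone H3 at telomeres and DNA breaks, had 346, 278 and 323 in wild type and 277, 358 and 285 in Zmpste24-/-. Its order reversed from pair to pair (-0.31, 0.34 and -0.17), around a difference of -0.04 (-0.49 to 0.40 without a block). Sirt7, a nucleolar sirtuin tied to ribosomal RNA synthesis, had 1111, 936 and 941 in wild type and 898, 929 and 1062 in Zmpste24-/-. It had no common direction either, with a difference of -0.05 (-0.43 to 0.34 without a block). Both intervals hold differences in either direction, so equal levels are not shown.

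Sirt2, the sirtuin that deacetylates tubulin, had 1685, 1403 and 1268 in wild type and 1757, 1421 and 1281 in Zmpste24-/-. The paired values were within 0.06 log2 units of each other (0.06, 0.02 and 0.01). The difference was 0.03 (-0.42 to 0.48 without a block, -0.14 to 0.21 with the replicate block).

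Of the mitochondrial sirtuins, Sirt3, the main deacetylase of the matrix, had 395, 240 and 199 in wild type and 349, 196 and 141 in Zmpste24-/-. It was the lower in each pair (-0.17, -0.27 and -0.45), with Zmpste24-/- culture 1 above wild-type cultures 2 and 3. The log2 difference was -0.30 (-1.21 to 0.62 without a block, -0.60 to 0.0013 with it), and the adjusted p with the replicate block was 0.557. The difference was -0.03 without wild-type culture 1, -0.02 without Zmpste24-/- culture 3, -0.50 without wild-type culture 3 and -0.63 without Zmpste24-/- culture 1. As for Sirt1, these omissions weighted the culture numbers unequally. Sirt3 differed by number, with log2 values of -0.73 for number 2 and -1.07 for number 3 against number 1. Whether the Sirt3 difference rests on 1 culture thus cannot be read from them. Sirt4, which acts on lipoyl and other acyl groups and as an ADP-ribosyltransferase, had 187, 130 and 123 in wild type and 185, 104 and 131 in Zmpste24-/-. The difference was -0.07 (-0.71 to 0.57 without a block). Sirt5, the desuccinylase, had 508, 272 and 211 in wild type and 535, 250.02 and 229 in Zmpste24-/- on its brightest probe set. Its pairs did not share a direction (0.07, -0.11 and 0.11), and its other tested probe set differed by -0.04.

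For salvage, the brightest Nampt probe set had 663, 1115 and 1175 in wild type and 696, 1015 and 1017 in Zmpste24-/-. The difference was -0.09 (-0.76 to 0.58 without a block, -0.31 to 0.13 with the replicate block), and the other Nampt probe sets differed by 0.04 each. Nmnat1 had 69.6, 261 and 297 in wild type and 79.8, 294 and 327 in Zmpste24-/- on its brightest probe set, which was higher in each pair by 0.16, 0.16 and 0.13. Its other probe set went against this in pair 1, with 95.9 in wild type and 65.3 in Zmpste24-/-, and its difference was -0.09 against 0.15 for the brightest. The direction of Nmnat1 thus depended on the probe set. Nmnat1 lies on chromosome 4, as Zmpste24 does. Over the 13 tested probe sets, 4 had the same direction in every same-numbered pair (30.8%, against 31.9% of all tested probe sets), namely Sirt1, Sirt2 and the brightest Nmnat1 probe set on the higher side and Sirt3 on the lower. Taking each gene's brightest probe set, 4 of the 9 members were higher and 5 lower, with a median of -0.04, beside 6394 higher and 6644 lower and a median of -0.0036 over the 13038 tested genes.

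**Figure D2:**
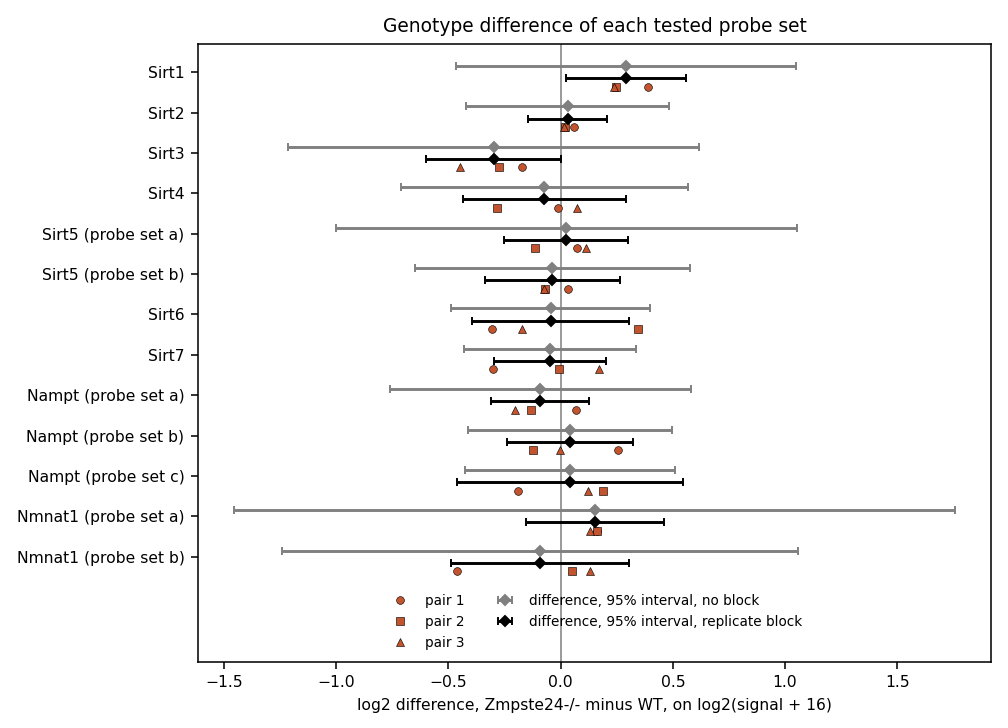
Log2 difference between Zmpste24-/- and WT for each tested probe set, with 95% intervals from limma without a block (grey) and with the replicate block (black), and the difference within each same-numbered pair (orange symbols). Sirt1 lies to the right of 0 and Sirt3 to the left in all 3 pairs, and every interval without a block spans 0.

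Culture numbers, unlike genotypes, separated most of the members. An F test over the 3 numbers, in the limma fit that also holds genotype, called 8 of the 13 probe sets (61.5%), but it also called 41.6% of all tested probe sets, so that the members' share is to be read against a series in which number 1 stands apart widely. Each number holds 2 arrays, 1 of each genotype, and the labels do not say what a number stands for. Of the 8, 4 were low on both number 1 arrays (30.8%, against 18.5% of all tested probe sets) and 4 were high on both (30.8%, against 21.2%). The differences below are log2 values of numbers 2 and 3 against number 1, with the SE of limma.

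Sirt1 and both salvage enzymes were low in number 1. Nmnat1 had the widest gap: both number 1 arrays lay at 69.6 and 79.8 and the other 4 between 261 and 327, a log2 difference of 1.70 for number 2 and 1.86 for number 3 (SE 0.16, adjusted p = 1.2e-04). On the log2(signal + 16) scale that is 3.24-fold and 3.62-fold. Its other probe set had the same direction, at 1.09 and 1.30 (SE 0.21, adjusted p = 0.00299). Sirt1 was higher by 0.65 and 0.83 (SE 0.14, adjusted p = 0.00438). The brightest Nampt probe set was higher by 0.63 and 0.67 (SE 0.12, adjusted p = 0.00324). The other Nampt probe sets did not show this: one had -0.33 and -0.14 (adjusted p = 0.242) and the dimmest, between 55.4 and 72.5, had 0.08 and -0.07 (0.892). The Nampt call thus rests on 1 of its 3 probe sets.

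Sirt2 and the mitochondrial sirtuins Sirt3 and Sirt5 were high in number 1. Sirt5 fell by 0.96 in number 2 and by 1.19 in number 3 relative to number 1 (SE 0.15, adjusted p = 7.7e-04), so that its number 1 signals were 1.94-fold and 2.28-fold those of the other numbers. Sirt3 fell by 0.73 and 1.07 (SE 0.16, adjusted p = 0.00243). Sirt2 fell by 0.28 and 0.43 (SE 0.093, adjusted p = 0.0161), and the other tested Sirt5 probe set by 0.45 and 0.63 (SE 0.16, adjusted p = 0.0314). Sirt4 had both number 1 arrays on top, at 187 and 185 against 104 to 131, with differences of -0.61 and -0.50 that did not pass (adjusted p = 0.0652). The nuclear sirtuins Sirt6 (0.03 and -0.02) and Sirt7 (-0.10 and 0.0013) had arrays of all numbers intermixed and did not pass either (adjusted p = 0.973 and 0.778), and the sign of one or both of these differences turned with the scaling for each.

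The calls for Sirt1, Sirt3, Nmnat1, the brightest Nampt and the brightest Sirt5 probe set were kept in each of 13 alternative settings. Those for Sirt2 and the other Sirt5 probe set were lost without wild-type culture 1 (adjusted p = 0.0739 and 0.126), wild-type culture 3 (0.0657 and 0.0963), Zmpste24-/- culture 1 (0.109 and 0.212) or Zmpste24-/- culture 3 (0.0738 and 0.112). Sirt2 was also not called after median centring (0.0939) or without an intensity trend (0.0830), and the Sirt5 probe set not with no filter (0.0747), after quantile normalization (0.0699) or after median centring (0.0587). The median difference between numbers 2 and 1 over all tested probe sets was -0.06 as deposited, 0.02 after quantile normalization and 0.09 after median centring. The directions of the 8 called probe sets were the same under the 3 scalings.

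Marker genes also differed by culture number, as many genes did. Of the 13038 tested genes, 6131 were called by number, with 2711 low and 3209 high on both number 1 arrays. All 9 proliferation genes measured, of which Cdk1, Mcm5 and Ccna2 were the brightest, were called and low on both number 1 arrays, with a summed signal of 6873 and 7495 there and 27233 to 31348 on the other 4. All 10 macrophage markers were called and high on both number 1 arrays, with a summed signal of 7096 and 13867 there and 1239 to 2003 elsewhere. The 3 brightest, Lyz2, Csf1r and Fcer1g, had 7191, 1168 and 1099 in Zmpste24-/- culture 1. The lowest signal of any macrophage marker was 2.93. The 3 muscle markers tested of 5 (Des, Actc1 and Chrna1) were called and low on both number 1 arrays, where the list summed to 292 and 305 against 596 to 642. The epithelial list (brightest Krt18, Epcam and Krt8) summed to 474 and 577 there against 902 to 1418. Of its 3 tested genes only Krt18 was called and low on both, with 116 and 128 against 579 to 897 (adjusted p = 5.6e-05). Krt8 was called with overlap. Epcam was not called and overlapped, with 267 and 334 against 199 to 386, and Cdh1 and Krt14 were under the limit for testing. Of the fibroblast list 5 of 10 were called, a share near that of all tested genes, with 4 of them high on both number 1 arrays. Dcn, named for the size of its gap, had 4457 and 6233 there against 477 to 862. Their part in the sirtuin and salvage differences was not tested. In bulk RNA, fewer cells of a type and less RNA per cell cannot be told apart.

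**Figure D3:**
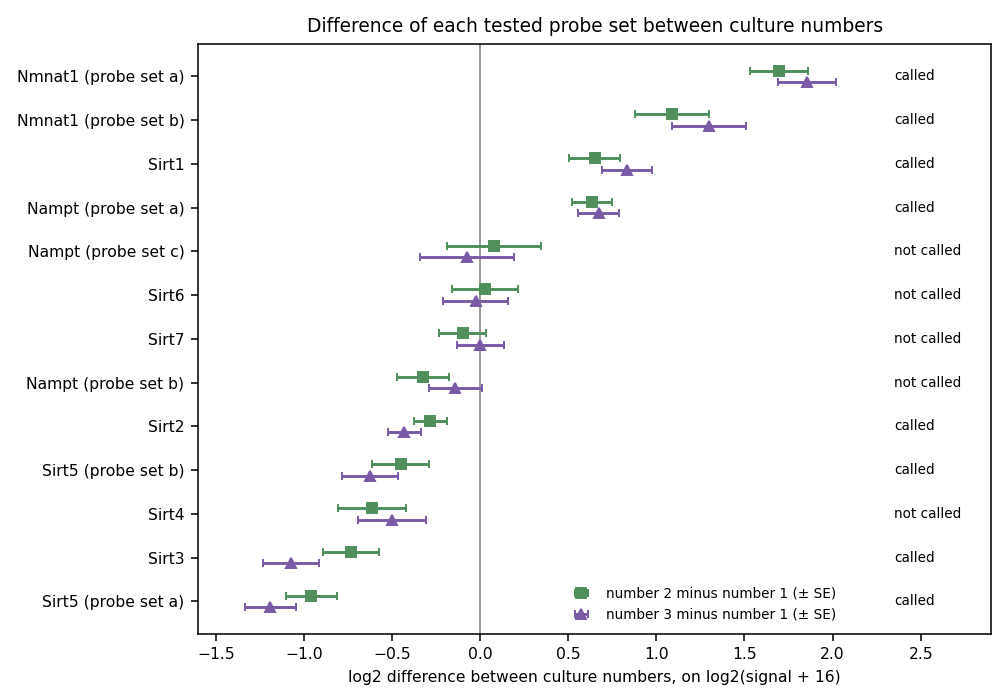
Log2 difference of number 2 (green squares) and number 3 (purple triangles) from number 1, with the SE of limma, for each tested probe set; "called" marks an adjusted p under 0.05 in the F test over the 3 numbers. Nmnat1, Sirt1 and 1 Nampt probe set lie to the right, Sirt2, Sirt3 and Sirt5 to the left, and Sirt6 and Sirt7 at 0.

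The promoters of Sirt1 and Nampt are shown because these 2 genes, the deacetylase and the enzyme that recycles its substrate, were both low in number 1, Nampt on its brightest probe set alone, and because no annotated gene overlaps the window. Of the other Nampt probe sets, one had both number 1 arrays on top (395 and 475 against 328 to 392) and the dimmest overlapped. All 9 members matched the RefSeq promoter table (build GRCm38.p6). The 200 bases before the start site are given 5′ to 3′ on the gene's strand, with capitals for the E-box CACGTG and the GC box GGGCGG on either strand.
Sirt1, chr10:63339036-63339235, minus strand: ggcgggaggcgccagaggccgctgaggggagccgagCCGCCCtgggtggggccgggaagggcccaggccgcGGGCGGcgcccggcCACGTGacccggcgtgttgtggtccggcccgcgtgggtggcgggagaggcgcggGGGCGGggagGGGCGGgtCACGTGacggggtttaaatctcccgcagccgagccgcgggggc
Nampt, chr12:32820135-32820334, plus strand: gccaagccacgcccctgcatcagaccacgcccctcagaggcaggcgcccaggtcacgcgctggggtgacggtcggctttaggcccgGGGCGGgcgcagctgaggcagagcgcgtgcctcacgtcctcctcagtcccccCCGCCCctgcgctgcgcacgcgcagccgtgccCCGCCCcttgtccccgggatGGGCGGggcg

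Both windows hold 4 GC boxes, the letters bound by SP1-type factors. The Sirt1 window holds 2 E-boxes, the letters read by MYC and by the clock factors CLOCK and BMAL1, and the Nampt window holds 0. Over the 250 bases before the start, the E-box occurred in 6.02% of 32851 promoters and in Sirt1 alone of the members, and the GC box in 32.7% of promoters and in 8 of the 9 members. The percentages count promoters, while a member counts when any of its promoters holds the letters. Nmnat1, Sirt3 and Sirt6 have alternative promoters, so member counts and percentages are not like for like. In all 12 motifs were searched on both strands, chosen with the sequences in view. The ETS letters CCGGAAG were in 4 members (6.91% of promoters), CCAAT in 4 (33.8%), the ZNF143 letters ACTACAANT in Sirt2 and Sirt4 (1.36%) and CCCAGCATG in Sirt3 (0.508%), and the NRF1 letters GCGCATGCG in Sirt6 and Sirt7 (1.45%). The E2F letters TTTCCCGC were in Sirt4 (0.895%) and GGCGGGAA in Sirt6 (1.86%), while TTTGGCGC (0.417%) and the CRE letters TGACGTCA (1.55%) and TGACGTGA (0.35%) were in no member. GGGCGG and GGCGGGAA can overlap. A match describes the letters in the window and says nothing of binding in these cells.

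For the 2 members with the widest range over the 6 arrays, the genes with the closest profile were found by the root mean square distance between log2 profiles centred on their own mean. Nmnat1, with a range of 2.00 log2 units, was closest to Nasp, a histone chaperone (distance 0.065), Nuf2, a kinetochore subunit (0.068), and Chaf1b, a subunit of chromatin assembly factor 1 (0.075). Nasp had 532 and 589 on the number 1 arrays and 1890 to 2170 on the other 4. Sirt3, with a range of 1.39, was closest to Kif3a, a kinesin motor of cilia (0.064), the transcriptional regulator Hes6 (0.082) and the methyltransferase gene Hemk1 (0.083). Kif3a had 1078 and 970 on the number 1 arrays and 413 to 684 on the others. These distances are a description over 6 arrays, on which the gap between number 1 and the rest is shared by many genes.

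The wider NAD pathway showed no genotype call. Of 19 listed genes of NAD synthesis outside the members, 18 had a probe set, 10 were tested and 0 were called with or without the block, with 4 higher, 6 lower and a median of -0.07. Nmrk1, the kinase that makes nicotinamide mononucleotide from the riboside, had 261, 180 and 212 in wild type and 285, 78.3 and 117 in Zmpste24-/-, a difference of -0.57 that was lower in pairs 2 and 3 only. Nnmt, which methylates nicotinamide and so removes it from salvage, had -0.23 and Nmnat2, a relative of Nmnat1 outside the nucleus, had -0.31. Genes of the kynurenine route (Qprt, Haao, Kynu, Kmo, Ido1, Ido2 and Afmid) were under the limit for testing. Tdo2 was just over it, at 31.5 to 54.7.

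Of 18 listed enzymes that consume NAD outside the sirtuins, 15 were tested and 0 called, with 9 higher, 6 lower and a median of 0.01. Parp12, an ADP-ribosyltransferase induced by interferon, had 820, 773 and 845 in wild type and 674, 502 and 602 in Zmpste24-/-. Its groups did not overlap, with a difference of -0.45 and a limma adjusted p of 0.334 with the replicate block. Parp9, of the same interferon-induced kind, had -0.48 (adjusted p = 0.377 with the block) and was the lower in each pair (-0.30, -0.56 and -0.58). Tiparp had 0.21, and Parp1, the main ADP-ribosyltransferase of DNA damage, had -0.12 with pairs of 0.25, -0.46 and -0.13. Without overlap, this list had 1 gene lower and 1 higher, beside 346 lower and 274 higher of all 13038 tested genes.

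Among 9 regulators of sirtuins, all tested, 0 were called, with 5 higher, 4 lower and a median of 0.01. Hic1, a repressor of Sirt1, had 744, 861 and 814 in wild type and 613, 684 and 686 in Zmpste24-/-, without overlap, a difference of -0.28 with an adjusted p of 0.484 under the block. Prkaa1, a catalytic subunit of AMP-activated kinase, had 0.16 and Clock 0.16. Of 13 nuclear substrates of sirtuins 12 were tested, with 7 higher, 5 lower, a median of 0.06 and 0 called. Srebf1 (-0.23) and Rela (-0.18), the lipogenic factor and the NF-kB subunit, were lower in every pair, Srebf1 also without overlap of the groups. Wrn, the helicase of Werner syndrome, had 149 to 171 in wild type and 185 to 218 in Zmpste24-/-, a difference of 0.31 with no overlap (adjusted p = 0.578 with the block).

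Of 13 listed metabolic substrates, those of the mitochondrial sirtuins and Acss2, an acetyl-CoA synthetase that SIRT1 deacetylates, 11 were tested, with 5 higher, 6 lower, a median of -0.01 and 0 called. Acss2 had -0.43, from -0.0006 in pair 1 to -0.71 and -0.58 in pairs 2 and 3. Opa1, which fuses inner mitochondrial membranes, had 0.17 and Sdha, of respiratory complex II, had -0.14. The SIRT3 substrates Sod2 and Idh2 differed by 0.01 and -0.01. Without overlap, this list had 1 gene lower and 0 higher. For comparison, the zinc-dependent deacetylases Hdac1 to Hdac11, which do not use NAD, had 2 higher and 9 lower of 11, a median of -0.09 and 0 called. Hdac1 had 4041, 4917 and 4685 in wild type and 2899, 3927 and 3868 in Zmpste24-/-, without overlap, a difference of -0.36 with an adjusted p of 0.256 under the replicate block. Hdac2 had 0.18 and Hdac11 had -0.36.

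**Figure D4:**
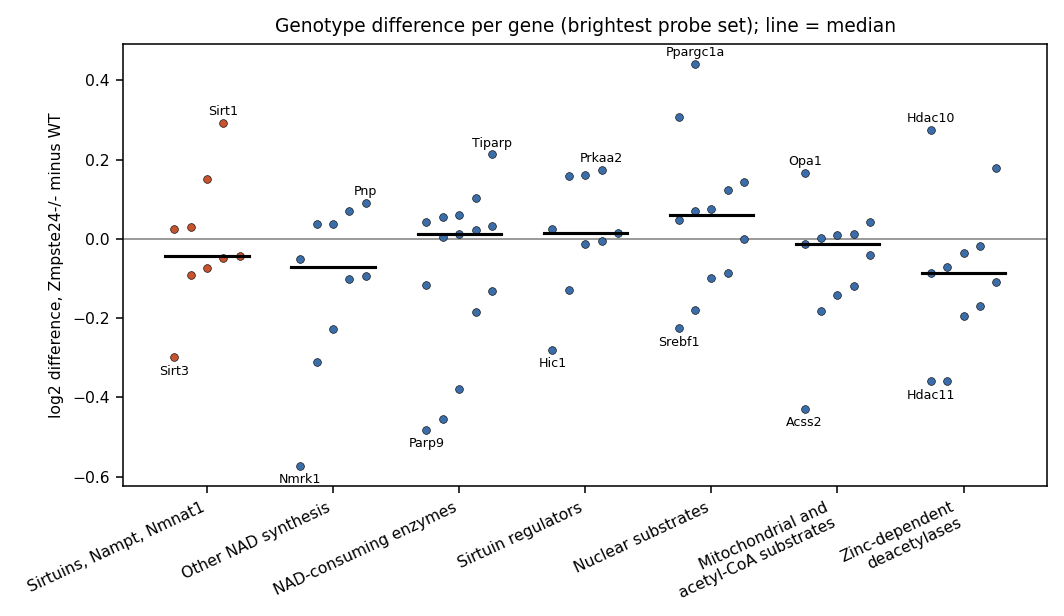
Log2 difference between Zmpste24-/- and WT of each tested gene by its brightest probe set, for the members (orange) and 6 lists of related genes (blue); lines are medians and the highest and lowest gene of each list is named. The medians lie between -0.09 and 0.06, and no gene shown was called; with 1 array left out the median kept its sign only for other NAD synthesis.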

How the data were processed

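The authors deposited 1 linear intensity for each probe set and array. The submitters' processing notes name GCOS, the scanner maker's software. No version or setting of it was found in the sources used here. All 6 arrays have a mean of 500.003 after 2% of probe sets are trimmed from each end, so the scaling to 1 level removes any change in total RNA. Of 45101 probe sets, 64 controls were left out. Names came from the platform annotation: 34945 probe sets have 1 symbol, 932 several and 9160 none listed. Of those with 1 symbol, 34741 matched a RefSeq gene identifier (GRCm38.p6) and 0 changed symbol.

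Intensities were taken as log2(value + 16), the dimmest 40% by mean over all arrays were dropped (under 39.4), and 27022 probe sets were tested with limma 3.58.1 in R 4.3.3 (intensity trend, Benjamini-Hochberg over all of them). The genotype fit had no block and 4 residual degrees of freedom per probe set; the fit with culture number had 2 and also gave the F test over numbers. Deviations from the group means correlated at 0.83, 0.59 and 0.57 between same-numbered cultures, all over 0.1, which met the rule for treating numbers as pairs. The main genotype fit was still kept without a block, as the labels do not say that a number marks a pair. The block fit is given beside it. The mismatched cultures 2 and 3 correlated at 0.49 and 0.55, nearly as high, so the values set number 1 apart from the rest and do not separate 2 from 3. The fits were run on simulated data with planted genotype differences larger than those of the members. That run cannot show the power for differences as small as theirs. All probe sets of the 9 members are named; of 6 related lists, genes called in either fit and the 3 with the smallest p under the block; of marker lists, the 3 brightest; and 3 closest profiles for each of the 2 widest members. Xist, Eif2s3y, Kdm5d and Zmpste24 were always named. Other genes (Dcn, Parp1, Sod2, Idh2, Tdo2 and the kynurenine genes) were added after their values were seen. Members and lists were chosen with earlier results of these data known. Figures were drawn with matplotlib 3.10.9.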

Additional observations from a re-analysis of the deposited data

How the results depend on the processing

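Alternatives were quantile normalization, centring each array on its median, pseudocounts of 1 and 64, dropping the dimmest 60% of probe sets or none, leaving out the intensity trend, the replicate block, replicates 2 and 3 alone, and each array left out. None called a member probe set for genotype. Over all probe sets, the genotype count of 0 became 5 with the replicate block, 20 with replicates 2 and 3 alone, and 0 to 4 with an array left out. The replicate block changed no call of a member. In replicates 2 and 3 alone the median of the 9 members was 0.016, and these signs turned: Sirt7 0.081, Sirt6 0.086, the dimmer Nmnat1 probe set 0.092 and the middle Nampt probe set -0.064. With an array left out the median ran from -0.063 to 0.021. The medians of the related lists ran from -0.13 to -0.015 (other NAD synthesis), -0.092 to 0.075 (NAD consumers), -0.029 to 0.077 (sirtuin regulators), -0.027 to 0.090 (nuclear substrates), -0.10 to 0.016 (metabolic substrates) and -0.22 to 0.041 (zinc-dependent deacetylases). Single values crossed 0 as well: Nampt from -0.35 to 0.088, -0.088 to 0.17 and -0.034 to 0.10 (brightest to dimmest), Nmnat1 from -0.44 to 0.74 and -0.40 to 0.40, Sirt2 from -0.095 to 0.14, Sirt4 from -0.27 to 0.10, Sirt5 from -0.35 to 0.37 and -0.23 to 0.13, Sirt6 from -0.15 to 0.022, and Sirt7 from -0.12 to 0.033. Leaving out 1 array gives the culture numbers unequal weight in the genotypes, by construction. By culture number, 6 to 8 of the 13 tested member probe sets were called with an array left out, against 8345 to 10815 of all 27022.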
